A study of Mus musculus with 94 samples.

Results

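The 94 single mouse blood stem cells of the study were split by their own level of Skil mRNA. Skil encodes SnoN, the close relative of the transcriptional co-repressor Ski. A cell was called a Skil cell where Skil reached 5 TPM (a length-corrected share of a cell's mRNA, scaled alike in every cell) and a Skil-low cell where it did not, which gave 43 Skil cells and 51 Skil-low cells of 94. Since Skil itself chose the groups, its level is a description and nothing below rests on it.

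The cells came from C57BL/6 mice and began as fetal liver stem cells, which were transplanted and recovered 6 months later from hindlimb marrow. They were enriched on CD117 beads and then sorted. The gate took cells with Cd45.2, Cd150, Sca-1 and c-Kit but without Cd48 or Lineage markers, which enriches donor-derived long-term stem cells. Each cell was captured on a Fluidigm C1 chip, amplified with SMARTer chemistry and sequenced alone. Of the 94 cells, 46 were Ski-KO and 48 were Ski-WT. The labels used here name neither the knockout allele, nor the host mice, nor how many animals gave the cells. Every cell's description, which is also its column name, opens with a number: 051716 on 27 Ski-KO cells, 051816 on 19 Ski-KO cells and 061016 on all 48 Ski-WT cells. What that number stands for is not said, so genotype and whatever it marks cannot be told apart. Skil and Skil-low cells were therefore compared inside each numbered set and the 3 differences were averaged with equal weight. In set 051816 only 5 cells were Skil-low, against 16 in set 051716 and 30 in set 061016. Every difference in set 051816 thus rests on those 5 cells. No animal is named for any cell, so cells are not replicates here, no p-value is given, and intervals on shares of cells are exact 95% (Clopper-Pearson) intervals that cover counting error only.

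SnoN and Ski bind the Smad proteins that carry transforming growth factor beta (TGF-beta) signals to the nucleus and recruit co-repressor complexes with histone deacetylases, which holds TGF-beta target genes down. Skil is itself a direct TGF-beta target, so its transcript belongs to a feedback loop, together with the inhibitory Smad gene Smad7. In blood stem cells TGF-beta signals are known for promoting quiescence, in part through inhibitors of cyclin-dependent kinases.

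Most Skil-low cells had no Skil at all. It was listed at 0 in 39 cells and lay above 0 but under 5 TPM in 12 cells. In the 43 Skil cells it ran from 5.01 TPM through a median of 82.4 to 483.9 TPM. The cells next to the limit held 5.01, 6.96 and 8.02 TPM on the inside and 2.34, 1.83 and 1.66 TPM on the outside. A limit of 1 TPM would have named 46 cells and a limit of 20 TPM would have named 38. Skil cells made up 11 of 27 cells in set 051716 (40.7%, 22.4 to 61.2), 14 of 19 in set 051816 (73.7%, 48.8 to 90.9) and 18 of 48 in set 061016 (37.5%, 24 to 52.6). Among Ski-KO cells as a whole the share was 25 of 46 (54.3%, 39 to 69.1). The intervals of the 3 sets overlap, and the 2 Ski-KO sets lay further from each other than set 051716 lay from the Ski-WT set. Median Skil among the Skil cells was 91.8, 80.1 and 81.3 TPM in the 3 sets, so the sets differed in the share of cells with Skil more than in its level in those cells.

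**Figure D1:**
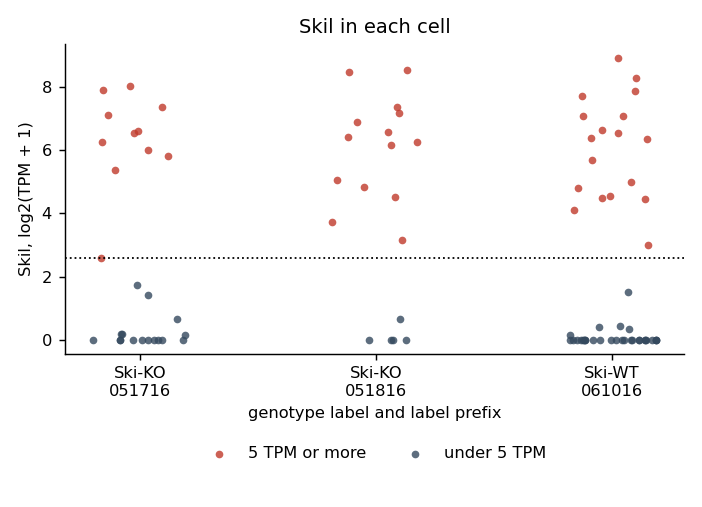
Skil in each of the 94 cells as log2(TPM + 1), by the number that opens the cell's description; the line marks the 5 TPM limit. Most Skil-low cells sit at 0, and the Skil cells reach 261, 373 and 483.9 TPM in sets 051716, 051816 and 061016.

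The number of detected genes did not differ in the same direction in all 3 sets. Skil cells had a median of 3248 genes above 0 against 3226.5 in Skil-low cells of set 051716, 3564.5 against 3798 in set 051816, and 3843 against 3517.5 in set 061016. The direction thus differed between sets. The mean differences were 92.1, -318 and 279 genes in the 3 sets, and their mean was 17.7 genes. The files give no read counts, so the number of reads behind a cell is unknown and a 0 can mean a missed transcript.

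The genes of the sort markers differed unequally. Kit, the stem cell factor receptor on which the beads and gate rest, differed by -0.07, and Cd48, absent by design, reached 5 TPM in 0 of 43 Skil and 0 of 51 Skil-low cells. The transcript of the Cd150 gene, Slamf1, was seldom seen although its protein was sorted on, with 3 Skil and 8 Skil-low cells at 5 TPM or more. It was below Skil-low cells on average in every set (-1.14, -0.75 and -0.52, mean -0.80), under the detection filter given below. Ptprc, the gene of the pan-leukocyte protein Cd45, was higher in Skil cells of every set, by 0.80, 3.13 and 2.52 with a mean of 2.15. With the Skil limit at 20 TPM that mean was 0.77. It ran from 0 through a median of 6.51 to 10.38 in Skil cells and from 0 through 3.32 to 10.21 in Skil-low cells. These values, like all differences that follow, are on the log2(TPM + 1) scale, and differences are Skil minus Skil-low. A difference of 1 adds 1 to the mean of logged values, which doubles the geometric mean of TPM + 1. For genes absent from many cells such a difference mixes the share of cells with the level in them and is not a fold change.

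Across the transcriptome the differences hardly matched between sets. Of 5464 genes above 0 in at least 25% of cells, 262 (4.80%) met the size rule for higher, which asks for the same sign in all 3 sets and a mean of at least 1, and 228 (4.17%) met the mirror rule for lower. Without the size limit, 787 genes (14.4%) were above 0 in all 3 sets and 638 (11.7%) were below 0. These percentages are the background for every count below. The median gene differed by 0.02, and the central 90% of genes lay between -1.18 and 1.10. That range was -1.70 to 1.97 in set 051716, -2.89 to 1.98 in set 051816 and -1.18 to 1.67 in set 061016. It was widest in set 051816, which held 5 Skil-low cells. Across genes, the differences of one set said almost nothing about another: Pearson's r was 0.03 between sets 051716 and 051816, 0.02 between 051716 and 061016, and -0.01 between 051816 and 061016. The signs matched for 50.7%, 51.3% and 50.1% of genes. The 3 sets share no cells, and genes are not independent replicates, so these are descriptions.

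**Figure D2:**
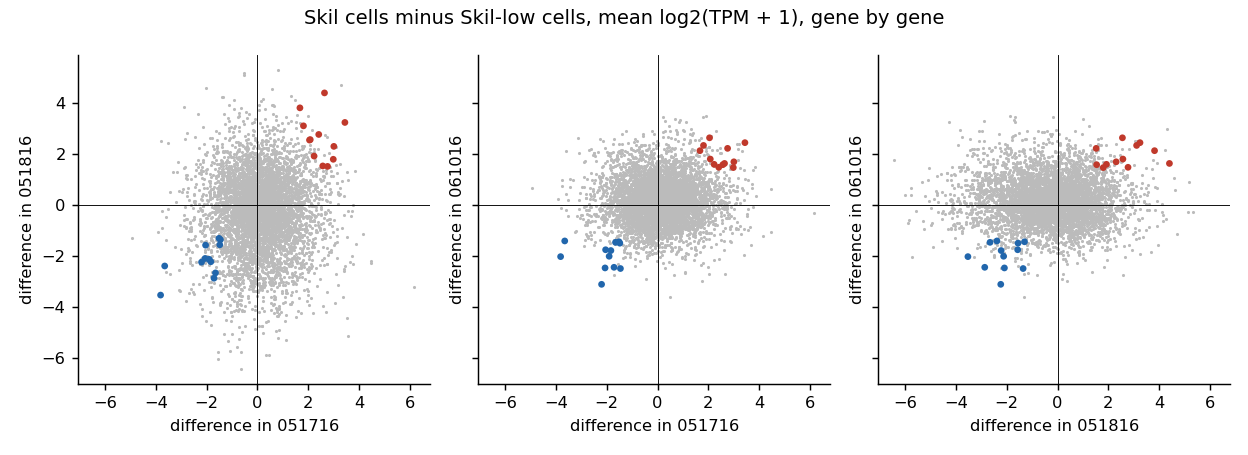
Difference of each of 5464 genes (Skil minus Skil-low, log2(TPM + 1)) in one set against another, for the 3 pairs of sets. The clouds are round, with r of 0.03, 0.02 and -0.01.

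Ski, the relative of Skil, was found mainly in Skil cells. Ski reached 5 TPM in 8 of 43 Skil cells (18.6%, 8.39 to 33.4) and in 1 of 51 Skil-low cells (1.96%, 0.0496 to 10.4). By set the counts were 2 of 11 against 0 of 16 in 051716, 1 of 14 against 0 of 5 in 051816, and 5 of 18 against 1 of 30 in 061016. Counted as any value above 0, Ski was present in 15 of 43 (34.9%, 21 to 50.9) against 4 of 51 (7.84%, 2.18 to 18.9). The 8 Skil cells with Ski held it at 8.24, 10.5, 11.9, 19.9, 21.8, 121, 162 and 228 TPM, and the single Skil-low cell held 335.5 TPM, the highest of all. Their Skil levels, in the same order, were 22.5, 5.01, 82.4, 50.9, 16.2, 134, 12.3 and 96.4 TPM, and 0.27 TPM in the Skil-low cell. Thus 3 of the 8 stood between 5 and 20 TPM of Skil, and with the limit moved to 20 TPM the shares came to 13.2% against 7.14%. Without set 061016 they were 12% and 0%. The size of the excess therefore depended on where the limit was drawn.

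As a background for that count, 393 other genes also reached 5 TPM in exactly 9 cells, and 2 of them (0.509%) had 8 or more of those cells among the Skil cells, with a median of 4. Ski and Skil are related in sequence. Their 3 and 6 GENCODE transcripts hold 5560 and 9775 different stretches of 31 bases, of which 0 are shared. How reads were assigned between the 2 genes was not tested. Ski reads were also present in cells labelled Ski-KO, 3 of them at 5 TPM or more. A deletion of part of the gene can leave transcript, and which part is missing is not given, so Ski mRNA does not check the genotype here. Ski fell under the 25% detection filter, being above 0 in 20.2% of cells, and its mean difference was 0.86 (0.91, 0.65 and 1.02 in the 3 sets).

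Of the TGF-beta response genes, Junb and Tgif1 were above Skil-low cells on average in every set and Smad7 was not. The list held 20 genes, of which 16 were in the table and 3 passed the detection filter, so it was too thinly measured to speak as a group: 1 of the 3 met the rule for higher and the median was 0.99, beside 0.02 over all genes. With no detection filter the list median was 0.035. Junb, an AP-1 subunit induced by TGF-beta, ran from 0 through a median of 2.98 to 9.52 in Skil cells and from 0 through 1.61 to 8.26 in Skil-low cells. The ranges overlap almost wholly. Junb was above Skil-low cells on average in each set, by 1.13, 1.11 and 0.73, although in set 051816 its median was lower in Skil cells (1.78 against 2.22). Its mean difference of 0.99 was just short of the rule. Tgif1, a homeodomain co-repressor that binds Smads, differed by 0.45, 1.33 and 1.24 (mean 1.01), from 10 Skil and 9 Skil-low cells at 5 TPM or more. It only just met the rule: its mean was 0.81 and 0.72 with the Skil limit at 1 and 20 TPM, and 0.65 with a pseudocount of 10. Id2, an inhibitor of basic helix-loop-helix factors, was at 5 TPM or more in 8 Skil and 2 Skil-low cells and differed by 1.38, 1.10 and 1.15, under the detection filter. Its relative Id1 went the other way in count, with 1 Skil and 7 Skil-low cells.

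Smad7, the inhibitory Smad and the nearest functional partner of Skil in the feedback loop, showed no common direction. It ran from 0 through a median of 0 to 5.43 in Skil cells and from 0 through 0 to 6.16 in Skil-low cells. Only 6 of 43 and 6 of 51 cells reached 5 TPM, and the differences were -0.67, 0.26 and 0.20 with a mean of -0.07. Klf10, another early TGF-beta target, likewise differed by -0.06, -1.53 and 1.45. With so few positive cells, whether Smad7 and Skil occur together could not be judged.

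**Figure D3:**
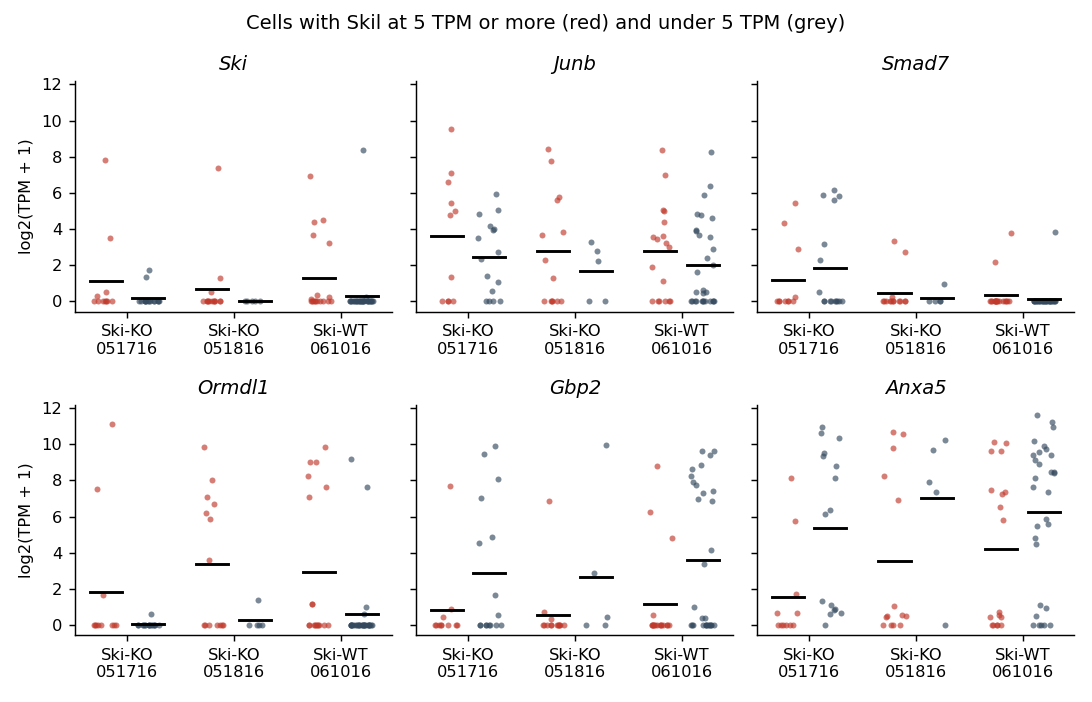
Ski, Junb, Smad7, Ormdl1, Gbp2 and Anxa5 in every cell as log2(TPM + 1), by set and by Skil group, 1 point a cell. Ski and Ormdl1 are at 0 in most cells of both Skil groups, Gbp2 and Anxa5 have more high values among Skil-low cells, and every panel overlaps.

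Too few receptors and signal carriers of the pathway were measured to say whether they separated the groups. None of 4 measured ligand and receptor genes and none of 6 measured Smads and regulators met the rule in either direction, with medians of -0.03 and -0.17. Over all genes only 4.80% met it for higher and 4.17% for lower. Tgfbr2, the ligand-binding type II receptor, differed by -1.74, -1.07 and 0.51, so its sign turned in the Ski-WT set. Tgfbr1, the type I receptor, was at 5 TPM in 2 Skil and 1 Skil-low cells. The co-receptor genes Eng and Tgfbr3 differed by 0.17 and -0.09 and the BMP receptor Bmpr2 by 0.03. Among the Smads, the differences were -0.53 for Smad2, 0.33 for Smad3, -0.24 for the shared partner Smad4, and 0.24 and 0.14 for the BMP-driven Smad1 and Smad5. Tgfbr1, Smad2, Smad3 and Smad4 were under the detection filter.

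Of the 13 measured genes for proteins known to work with Ski and SnoN, 0 met the rule for higher and 1 for lower, with a median of -0.05. The lower gene was Hdac3, the histone deacetylase of the nuclear co-repressor complex, which differed by -2.09, -3.31 and -0.66 (mean -2.02). It reached 5 TPM in 7 of 43 Skil and 19 of 51 Skil-low cells, with mean levels of 27.8 and 151 TPM. In all, 3 of the 13 were above 0 in every set and 3 were below. Among those above were Ncor1, the partner of Hdac3 (mean 0.27), and Mbd3, a subunit of the NuRD co-repressor complex (mean 0.89). The kinase gene Hipk2 and the arginine methyltransferase gene Prmt5 were below 0 in every set with means of -0.50 and -0.24.

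The cell cycle inhibitors were too thinly measured to say whether they marked either group. Only 2 of 5 listed inhibitor genes in the table passed the detection filter, 0 met the rule, and their median was -0.21. Cdkn1b, the p27 inhibitor of quiescent cells, was at 5 TPM or more in 28 Skil and 35 Skil-low cells and differed by 0.01, -1.25 and -0.03 (mean -0.42). Cdkn1c, the p57 inhibitor tied to stem cell quiescence, was found in 8 and 7 cells and differed by 0.50. The p21 gene Cdkn1a was found in 1 and 3 cells and differed by -0.20. Cdkn2c differed by -0.32, and Cdkn2d by 0.01.

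Among G1 cyclins and their partners the D-type cyclin genes were above Skil-low cells on average and the Rb and E2f genes were mixed. Of 9 measured genes 1 met the rule for higher and 0 for lower, 4 were above 0 in all 3 sets, and the median was 0.81 (1.17, 0.66 and 0.55 in the 3 sets), beside 0.02 over all genes. The median was 0.30 with no detection filter. Ccnd3, the D-type cyclin that met the rule, ran from 0 through a median of 3.24 to 10.5 in Skil cells and from 0 through 0 to 10.1 in Skil-low cells. It reached 5 TPM in 23 of 43 and 19 of 51 cells, and the differences were 1.83, 1.98 and 0.39. Its mean of 1.40 was 0.80 with a pseudocount of 10. Ccnd2, the D-type cyclin found in nearly every cell, differed by 1.5, 0.87 and 0.63, a mean that was a fraction short of the limit of 1. Its mean TPM was lower in Skil cells, 257 against 312, and its median was also lower (6.96 against 7.49), while 40 of 43 against 38 of 51 cells reached 5 TPM. The direction of Ccnd2 thus turned with the scale. Cdk4, their catalytic partner, differed by 0.09, 2.05 and 0.76. With all sets pooled its mean levels were 457 and 484 TPM, while its mean difference stayed above 0 in 13 alternative settings (lowest 0.42). The pocket protein gene Rbl1 differed by 1.21, 0.66 and 0.55. Ccnd1 differed by -0.43, 1.5 and 2.17. Of the other measured members the kinase gene Cdk2 was at 0.49 by mean, and the pocket protein gene Rbl2 and the factors E2f1 and E2f4 were below 0 by mean (-0.42, -0.41 and -0.08), though not in every set. Rb1, the retinoblastoma gene, did not pass the detection filter and was at -0.83. The summed level of the list had a median of 818 TPM in Skil cells and 893 TPM in Skil-low cells.

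Later cell cycle genes were mixed. Of 18 measured DNA replication genes 2 met the rule for higher and 0 for lower, with a median of -0.20 that ran from -1.26 in set 051816 to 1.02 in set 061016. The 2 were Rfc4, a subunit of the clamp loader (1.48, 1.39 and 1.57, with a mean of 0.54 at a Skil limit of 20 TPM), and Rrm1, the large subunit of ribonucleotide reductase (0.54, 0.85 and 2.13, with a mean of 0.69 without set 061016). None of 8 measured mitosis genes met the rule, with a median of -0.17. Both list medians were lowest in set 051816, at -1.26 and -1.25, where Skil cells also had fewer detected genes. The part of detection in them was not tested.

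A few stem cell genes were higher in Skil cells, while the list medians stayed near 0. Of 18 measured stem cell transcription factors 3 met the rule for higher and 0 for lower, with a median of 0.04. Lmo2, a bridging factor of the stem cell transcription complex, was present in every cell and ran from 3.94 through 8.62 to 10.3 in Skil cells and from 0.73 through 7.71 to 11.3 in Skil-low cells, with differences of 1.86, 1.62 and 0.30. Etv6, an ETS repressor needed by adult stem cells, differed by 1.08, 0.83 and 1.92, and its median was 5.57 against 4.40. Myb, a factor of stem and progenitor proliferation, differed by 0.81, 2.59 and 0.19, with a mean of 1.20 that was 0.50 without set 051816. With a pseudocount of 10 the means of Lmo2, Etv6 and Myb were 0.98, 0.91 and 0.98, and from mean TPM that of Lmo2 was 0.55. Mecom, a regulator of long-term stem cells, was below 0 in every set without meeting the rule (-1.54, -0.49 and -0.08). Hlf (0.05, -1.81 and -1.18) and Hoxa9 (-1.18, 0.98 and -1.18) had no common direction. Of 18 measured stem cell surface genes 1 met the rule for higher, Cd27 (2.59, 1.15 and 0.54), a TNF receptor family member that reached 5 TPM in 26 Skil and 21 Skil-low cells and whose mean of 1.43 was 0.85 without set 051716. The receptor genes Procr (0.07, 2.0 and -1.22) and Cd34 (-1.07, 1.09 and 1.78) and the Sca-1 gene Ly6a (1.72, -0.28 and -2.34) had no common direction.

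Gbp2 was lower in Skil cells, while the interferon genes as a list were mixed. None of 11 measured interferon genes was above 0 in all 3 sets, 5 were below 0 in all 3, and 1 met the rule for lower; the median was -0.56 (-0.19, -0.90 and -0.78). Gbp2, an interferon-induced GTPase, ran from 0 through a median of 0 to 8.81 in Skil cells and from 0 through 0.43 to 9.96 in Skil-low cells. It reached 5 TPM in 5 of 43 Skil cells (11.6%, 3.89 to 25.1) and 22 of 51 Skil-low cells (43.1%, 29.3 to 57.8), with mean levels of 20.3 and 149 TPM. The counts by set were 1 against 6, 1 against 2 and 3 against 14, and the differences were -2.06, -2.09 and -2.46. The other 4 did not meet the rule. Irf9, the DNA-binding part of the interferon-stimulated complex, differed by -0.88. The antiviral enzyme gene Rsad2 differed by -0.86. Ddx58, the RNA sensor RIG-I, differed by -0.56, but its mean TPM was higher in Skil cells (47.1 against 36.2). Without the 12 cells that held Skil above 0 and under 5 TPM, Irf9 differed by -0.31 and the list median was also -0.31. With no detection filter the median was -0.25. Above 0 by mean were Oasl2 (0.75), Xaf1 (0.49) and Oas1a (0.07). Among genes that did not pass the detection filter, Ifit1, Ifit2, Ifit3 and Bst2 were above Skil-low cells on average (0.34, 0.40, 0.24 and 0.55) and Isg15, Irf7 and Usp18 below (-0.67, -0.43 and -0.60). The direction was therefore not shared by the whole interferon family.

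The promoters of Gbp2, Irf9, Rsad2 and Ddx58, all below 0 in every set, were searched for known interferon elements, from 250 bases before to 50 after the start (RefSeq, GRCm38.p6). The interferon-stimulated response element core, 2 copies of GAAA set 2 bases apart (TTTC on the other strand), was found in Gbp2, Rsad2 and Ddx58, and in 1131 of all 32851 promoters (3.44%). It was not found in the 2 Irf9 promoters. The gamma-activated site TTCNNNGAA, which reads the same on both strands and is held by 8.30% of promoters, was not found in these genes. A match is a run of letters and not a site of binding. The searched genes came from a list of interferon response genes, and its members above 0 were not searched. The matches therefore say nothing about the Skil split. The windows below show the match in capitals with the bases around it, 5′ to 3′ on the gene's strand, since the place of the element differs between the 3 genes: 59 and 120 bases before the start in Gbp2 (chr3:142620554-142620631, plus strand) and Rsad2 (chr12:26456545-26456622, minus strand), and 2 bases after it in Ddx58 (chr4:40239796-40239873, minus strand).
Gbp2: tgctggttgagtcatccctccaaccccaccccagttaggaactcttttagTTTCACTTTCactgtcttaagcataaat
Rsad2: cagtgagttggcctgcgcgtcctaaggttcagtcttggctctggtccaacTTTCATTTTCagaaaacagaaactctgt
Ddx58: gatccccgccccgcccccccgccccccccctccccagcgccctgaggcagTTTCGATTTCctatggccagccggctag

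Outside the lists, the genes that held their direction best were chosen by the smallest of their 3 differences. All 24 were picked from the comparison itself, which also fixes most of their stability of sign, so their values describe these cells only. In 6 of the 24 the mean came under 1 in size in some alternative setting: Lage3 at 0.63 and Cox19 at -0.94 with the Skil limit at 20 TPM, Sp110 at -0.73 from mean TPM, Rhbdd2 at -0.93 with a pseudocount of 10, and Psenen and Ankhd1 at -0.83 and -0.91 without the 12 cells of intermediate Skil. Of the 12 highest, Ormdl1, a regulator of sphingolipid synthesis, came nearest to a gene of Skil cells alone: it reached 5 TPM in 15 of 43 Skil cells (34.9%, 21 to 50.9) and 2 of 51 Skil-low cells (3.92%, 0.478 to 13.5). By set this was 2, 7 and 6 Skil cells against 0, 0 and 2, with mean levels of 153 and 15.2 TPM and differences of 1.81, 3.11 and 2.34. Ormdl1 only just passed the detection filter, and most of the cells that held it above 0 were Skil cells. How far the filter and the choice of genes shaped its contrast was not tested. Pafah2, an acetylhydrolase of oxidised phospholipids, reached 5 TPM in 24 of 43 (55.8%, 39.9 to 70.9) against 9 of 51 (17.6%, 8.4 to 30.9), with differences of 2.05, 2.55 and 2.64. Its median was 3.03 against 0.

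Syngr2, a vesicle membrane protein, differed by 2.64, 4.40 and 1.64 with 25 against 12 cells. The least characterised of them, D8Ertd738e, had the highest mean difference of the 12 at 3.04 (3.44, 3.24 and 2.45). It ran from 0 through 8.38 to 10.8 in Skil cells and from 0 through 4.67 to 10.5 in Skil-low cells. The rest were Nucb1, a Golgi calcium-binding protein (2.15), the arrestin-domain gene Arrdc1 (2.34), the pseudophosphatase gene Styx (2.54), the SNARE gene Bet1 (1.90), the phosphoinositide phosphatase gene Tmem55a (2.17), Lage3 of the tRNA-modifying KEOPS complex (2.22), the recombination factor gene Sfr1 (2.08) and I730030J21Rik (1.92).

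Of the 12 lowest, Anxa5 had the largest mean difference (-3.12). Anxa5, the calcium-dependent phosphatidylserine-binding annexin, ran from 0 through a median of 0.56 to 10.7 in Skil cells and from 0 through 7.61 to 11.6 in Skil-low cells. It reached 5 TPM in 16 of 43 (37.2%, 23 to 53.3) against 35 of 51 (68.6%, 54.1 to 80.9), with differences of -3.81, -3.53 and -2.02. Sp110, a nuclear body protein that interferon induces, ran from 0 through 1.74 to 10.6 and from 0 through 6.79 to 10.3. It reached 5 TPM in 19 Skil cells (44.2%) and 38 Skil-low cells (74.5%), with differences of -2.20, -2.23 and -3.10.

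Casp12, an inflammatory-type caspase, was found in 7 against 25 cells with a mean difference of -2.34. Rhbdd2, a rhomboid-domain gene, was found in 4 against 20 (-1.94), and Ppp1r16b, a regulatory subunit of protein phosphatase, in 9 against 22 (-2.01). The others were Ndufb5 of respiratory complex I (-2.48), the mitochondrial ribosome gene Mrpl46 (-1.92), the complex IV assembly gene Cox19 (-1.42), the ribosome biogenesis gene Emg1 (-1.79), the gamma-secretase subunit gene Psenen (-1.77), the ankyrin-repeat gene Ankhd1 (-1.51) and Gbp2. Other respiration genes went both ways: of 43 measured oxidative phosphorylation genes 4 met the rule for higher and 4 for lower, with a median of -0.25, and of 48 ribosomal protein genes 0 met it in either direction, with a median of 0.03.

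**Figure D4:**
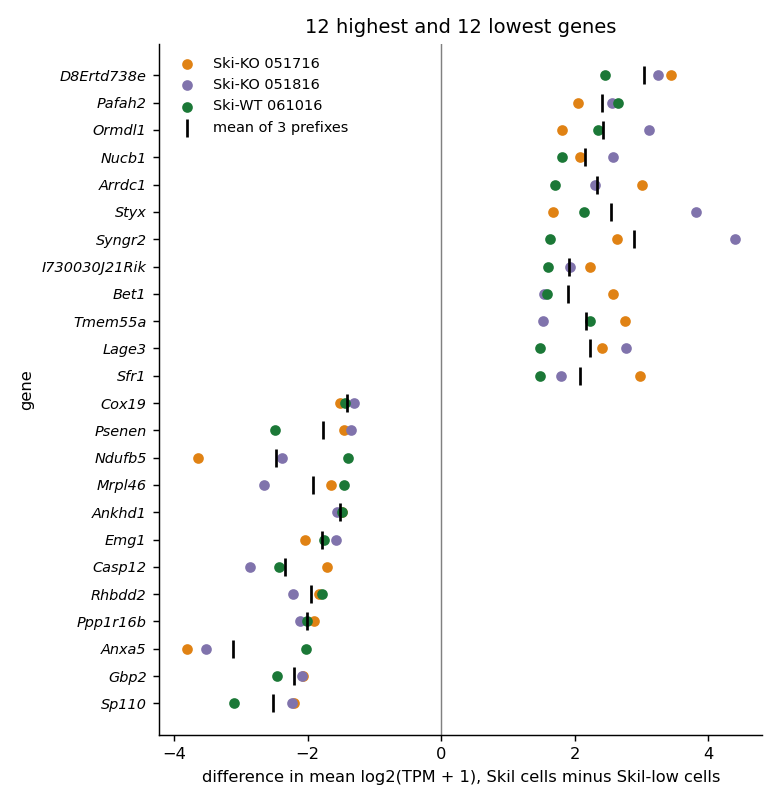
Difference of the 12 highest and 12 lowest genes in each set (Skil minus Skil-low, log2(TPM + 1)), 1 point a set. All points of a gene lie on one side of 0, as the choice of the genes requires.

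Signalling genes gave single members. Of 5 measured NF-kB genes 1 met the rule for higher, the subunit gene Nfkb1 (1.63, 0.81 and 1.91, with 18 against 14 cells), whose mean of 1.45 was 0.56 with the Skil limit at 20 TPM, while the inhibitor gene Nfkbia was below 0 in every set (mean -0.64). Of 4 measured p53 targets 1 met the rule for lower, the p53 ubiquitin ligase gene Mdm2 (-0.67, -3.89 and -0.69, with 8 against 15 cells), whose mean of -1.75 was -0.68 without set 051816. None of 16 measured immediate early genes met the rule, and 3 (Junb, Egr1 and Myc) were above 0 in every set, with a median of 0.48.

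Markers of other blood cells the gate could hold were compared for the same cells. Of 12 listed myeloid genes 7, among them Mpo, Elane and Csf1r, were at 0 in every cell. Prtn3, a granule protease, met the rule for lower (-1.73, -1.05 and -1.38, with 22 against 35 cells), with a mean of -0.69 from mean TPM. The summed level of the myeloid list had a median of 300 TPM in Skil cells (299.56, from 0 to 2655) and 447 TPM in Skil-low cells (446.53, from 0 to 4115). The megakaryocyte list summed to medians of 191 and 371 TPM, with the platelet chemokine gene Pf4 at -1.72, -0.27 and -0.62. The lymphoid list summed to 152 and 44 TPM with 6 of 11 genes at 0 in every cell, and the erythroid list to 3774 and 3101 TPM with Hbb-b1 at 0 in every cell. These sums pool the 3 sets. By pooled median, Skil cells were lower in the myeloid and megakaryocyte sums and higher in the lymphoid and erythroid sums. Overlap was wide: the lymphoid sum reached 2801 TPM in Skil and 4114 TPM in Skil-low cells. Only 2 myeloid, 3 megakaryocyte, 2 lymphoid and 2 erythroid genes passed the detection filter, too few to speak for a lineage. Inside sets, their median difference was below 0 in every set for the myeloid and megakaryocyte lists. In each of these lists only 1 gene was itself below 0 in all 3 sets. The median difference was 0.47, 1.42 and -0.05 for the lymphoid list and -0.05, 1.09 and 0.74 for the erythroid list. The part of such cells in the lower Gbp2, Sp110 and Anxa5 or the higher Ptprc was not tested.

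**Figure D5:**
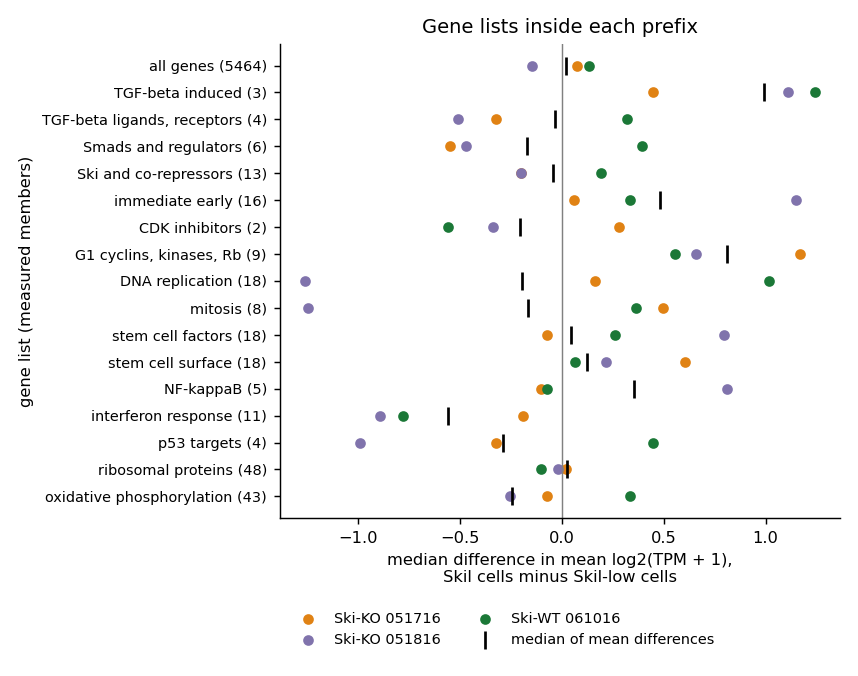
Median difference of gene lists over their measured genes (Skil minus Skil-low, log2(TPM + 1)), in each set and as the median of the genes' mean differences. The G1 cyclin list is above 0 in all 3 sets (1.17, 0.66 and 0.55) and the interferon list below 0 in all 3 (-0.19, -0.90 and -0.78). Other lists drawn are also above 0 in all 3, such as TGF-beta response (0.45, 1.11 and 1.24). The myeloid list, not drawn and with only 2 measured genes, was also below 0 in all 3 (-0.62, -1.36 and -1.05).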

How the data were processed

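The deposited values are log2(TPM + 1) for 13244 genes in 94 single cells. The submitters' processing notes name Bowtie2, RSEM and the mouse build mm9, without roles or versions. TPM was recovered as 2 to the deposited log2 value, minus 1, and holds no read depth. Groups came from the labels and from the 5 TPM limit on Skil. For each gene the difference of mean log2 values was taken inside each number that opens the cells' descriptions and the 3 were averaged; genes above 0 in at least 25% of cells were kept, and Skil was left out. A gene met the size rule where the 3 differences shared a sign and their mean was 1 or more in size. Counts of cells, ranges, medians and TPM levels given for Skil and Skil-low cells without a set pool all sets. Named genes were the 12 highest and 12 lowest by the smallest of the 3 differences, sex-linked genes left out, and up to 4 members a list. The cell groups, the gene lists and the members were chosen with earlier results of these data known, as were H2-Aa, H2-Ab1 and the search of promoters. Scripts were checked on the values of these cells shuffled inside each set, with large known shifts added to some genes. They used Python 3.11.15, numpy 2.4.6, pandas 2.3.3 and scipy 1.17.1, with figures from matplotlib 3.10.9. Promoters came from a RefSeq table of GRCm38.p6. Alternatives changed the Skil limit, the pseudocount, the detection filter, the scale, the normalization, a covariate for detected genes, the pooling of sets and each set left out in turn. Some members of the gene lists are not reported here.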

Additional observations from a re-analysis of the deposited data

How the results depend on the processing

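Of the main values recomputed under the alternatives, 157 stayed within and 22 moved beyond the spread between sets (for shares of cells, the exact interval, and for counts of genes, 1.5 times). Of single called genes, Sdha changed sign, from -1.05 to 0.032 with the Skil limit at 20 TPM. The genes higher and lower (262 and 228) came to 467 and 355 with a pseudocount of 0.1, 58 and 73 with a pseudocount of 10, 508 and 361 from the ratio of mean TPM, and 148 and 122 with a filter of 50% of cells. They came to 479 and 492 without set 051716, 532 and 686 without set 061016, and 529 higher without set 051816, where fewer sets had to share a sign. The share of Skil-low cells with Ski (1.96%) was 0% without set 061016 and with the 12 cells of Skil above 0 and under 5 TPM left out. The G1 cyclin median (0.81) was 0.44 with a pseudocount of 10 and 0.30 with no filter. The TGF-beta response median (0.99) was 2.35 from the ratio of mean TPM, 0.33 and 0.47 with filters of 10% and 50%, and 0.035 with no filter, and the median of stem cell transcription factors (0.04) was 0.49 from the ratio of mean TPM. The cause was not tested. No paired analysis was possible because the cell numbers in the titles only count cells within a genotype and no test across cells was made. With no animals named and genotype bound to the number in the description, these values describe 94 cells and not mice; read depth is unknown, and transcripts at 0 may have been missed.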

Other observations

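A pair of class II antigen presentation genes, singled out after their values were seen, was lower in Skil cells of every set. H2-Aa, the alpha chain of the I-A molecule, differed by -0.87, -1.55 and -2.39 (mean -1.60), and reached 5 TPM in 15 of 43 Skil and 25 of 51 Skil-low cells. Its beta chain gene H2-Ab1 differed by -1.65, -0.87 and -1.54 (mean -1.36), with 13 against 23 cells. Both met the rule for lower, which 4.17% of genes met. With the Skil limit at 20 TPM neither did, at -0.88 for H2-Aa and -0.52 for H2-Ab1, and H2-Ab1 was at -0.88 with the limit at 1 TPM.

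Too few chromosomal neighbours of Skil, also chosen afterwards, were measured to say whether they shared its split. Of the 10 nearest protein-coding genes on each side (20 in all, by RefSeq), 13 were in the table and 7 passed the detection filter. None of the 7 met the rule for higher or lower, and their median was 0.28, beside 0.02 over all genes. Mynn (0.15, 0.50 and 0.77) and Phc3 (0.84, 0.46 and 0.32) were above 0 in all 3 sets. Sec62 (-0.33, -1.60 and -0.23) was below 0 in all 3, and the rest had mixed signs.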
